A study of Homo sapiens with 18 samples.

Results

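The proteasome is measured here through 44 genes, a list chosen with earlier results of these data known. The list holds the 7 genes of the alpha ring and the 7 of the constitutive beta ring of the 20S core. It also holds the 6 ATPases and 4 other subunits of the base, 8 lid subunits, and 5 genes of activators and an inhibitor. The rest are 5 assembly factors of the 20S core and 2 of the base. All 44 were matched by symbol among the 62649 gene IDs of the counts, each to 1 ID, and all 44 had enough counts to be tested in both cell lines. The RNA came from the human lines BEAS-2B, an immortalised bronchial epithelial line, and A549, an alveolar epithelial line from a lung carcinoma, both listed as wild type. Cells on porous inserts of 24 mm were exposed at the air-liquid interface for 4 h to wood smoke, either complete or filtered, or to clean air, with 100 mL/min of flow and 85% relative humidity. Each line has 3 libraries of complete smoke, 3 of filtered smoke and 3 of clean air, which makes 18. The title of the series asks about carbonyl compounds that the smoke carries as gases. The lines also differed in growth medium and in cell number per insert, 500000 for BEAS-2B and 400000 for A549. Their sample names follow different forms too, and the labels do not say why.

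The 26S proteasome degrades proteins that carry chains of ubiquitin. A barrel of stacked alpha and beta rings, the 20S core, encloses the cutting sites, and a regulatory cap made of a base and a lid recognises the ubiquitin chain, removes it, unfolds the protein and feeds it into the barrel. Other caps, such as those built from PSME1 and PSME2, open the barrel without ubiquitin. Cells are known to raise many subunit genes together when proteasomes are inhibited, through the transcription factor NRF1, and NRF2 is known to raise some of them in cells under electrophilic stress.

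Counts assigned to genes ran from 28532235 to 55032499 per BEAS-2B library and from 14438397 to 21432089 per A549 library, so values in BEAS-2B rest on deeper libraries. Reads that mapped to several places took 10.2% to 31.7% in BEAS-2B with complete smoke and 10.8% to 19.2% with filtered smoke, against 7.69% to 9.08% in clean air, with the 31.7% in complete smoke library 3. In A549 they took 10.3% to 11.8% with complete smoke and 10.3% to 12.0% with filtered smoke, against 9.63% to 10.2% in clean air. Some uniquely mapped reads met no exon on the strand used for counts, and reads in introns are among them. In BEAS-2B they made up 1.22% to 12.6% with complete smoke and 1.09% to 2.90% with filtered smoke, against 3.51% to 6.41% in clean air. The A549 shares were 3.27% to 6.41% and 2.56% to 5.09%, against 6.49% to 7.57%. The sources do not tell if separate cultures gave the 3 samples of each group, so each p-value reflects how far these samples differ, and that spread may be technical. All 4 epithelial markers were present in both lines, and leukocyte and endothelial markers were under 1 CPM (counts scaled to a common library size) in every library. Defining markers were partly absent. Of 7 alveolar type II markers 6 were under 1 CPM in every A549 library, the surfactant genes SFTPA1, SFTPA2, SFTPB and SFTPC among them, while all 5 bronchial basal markers were above 1 CPM in at least 1 BEAS-2B library and KRT5, KRT14 and KRT17 were not in A549. Fibroblast markers in BEAS-2B summed to 229 to 459 CPM with complete smoke and 354 to 496 CPM with filtered smoke, against 499 to 925 CPM in clean air. Alveolar type I markers there summed to 641 to 722 CPM and 621 to 671 CPM, against 1034 to 1073 CPM, and bronchial basal markers to 855 to 2256 CPM and 1275 to 2502 CPM, against 533 to 1027 CPM. The part of these markers and read shares in the results was not tested. In such bulk samples fewer cells of a type and less RNA per cell cannot be told apart.

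Proteasome genes were higher after smoke than after clean air in both lines. A gene was called when its Benjamini-Hochberg adjusted p over all genes tested was under 0.05 in edgeR's quasi-likelihood test. After complete smoke 28 of 44 members were called higher and 0 lower in BEAS-2B, where 21.5% of all genes tested were called higher and 19.5% lower. In A549 complete smoke gave 17 of 44 higher, where 15.6% of all genes were, and 1 lower, where 16.9% were. After filtered smoke 26 of 44 were called higher in BEAS-2B, against 23.6% of all genes, and 1 lower, against 24.9%. The same exposure gave 28 higher in A549, against 23.1% of all genes, and 1 lower, against 23.5%. In this fit the members' share called higher was above that of all genes in each of the 4 comparisons, and their share called lower was below it. For complete smoke in A549 this did not hold under every other setting, as given below. The list was chosen with earlier results of these data known, so these shares describe it and are not independent support.

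The median log2 fold change of the 44 members was 0.88 in BEAS-2B and 0.60 in A549 after complete smoke, and 0.89 in BEAS-2B and 0.74 in A549 after filtered smoke. Over all genes tested the same medians were -0.06, 0.02, -0.07 and 0.01 in the same order. The 2 smokes of a line share its 3 clean air libraries, so their values are given side by side and not counted as separate support. In all 4 comparisons 12 members were called higher: PSMA4, PSMB4, PSMB6, PSMB7, PSMC4, PSMC5, ADRM1, PSMD7, PSMD8, PSMD13, PSME1 and PSME2. A further 11 were called in none: PSMA2, PSMC1, PSMC2, PSMC6, PSMD1, PSMD9, PSMD11, PSMD12, PSMD14, PSME3 and PSMF1. PSME4 was the 1 member called lower in any of the 4. The shares of all genes called in all 4, in none, or lower in any are not given. These counts alone thus do not show a change in the members.

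The 3 libraries of a group could also be set against each other without a model. All 3 complete smoke libraries lay above all 3 clean air libraries for 24 of 44 members in BEAS-2B, against 23.6% of all genes, and below them for 1, against 24.7%. In A549 they lay above for 27 members, against 24.5% of all genes, and below for 1, against 27.6%. Filtered smoke libraries lay above for 33 members in BEAS-2B, against 30.5% of all genes, and below for 2, against 30.6%. In A549 they lay above for 29 members, against 27.1%, and below for 1, against 30.2%. The member below the clean air libraries was PSME4 in A549 and PSMD1 in BEAS-2B, joined by PSMA2 after filtered smoke, and these were named after their values were seen. With library size alone the counts in BEAS-2B were 14 above and 7 below after complete smoke and 14 above and 9 below after filtered smoke, and in A549 23 and 28 above and 1 below after each. Statements on overlap for single genes below use the TMM-scaled values.

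**Figure D1:**
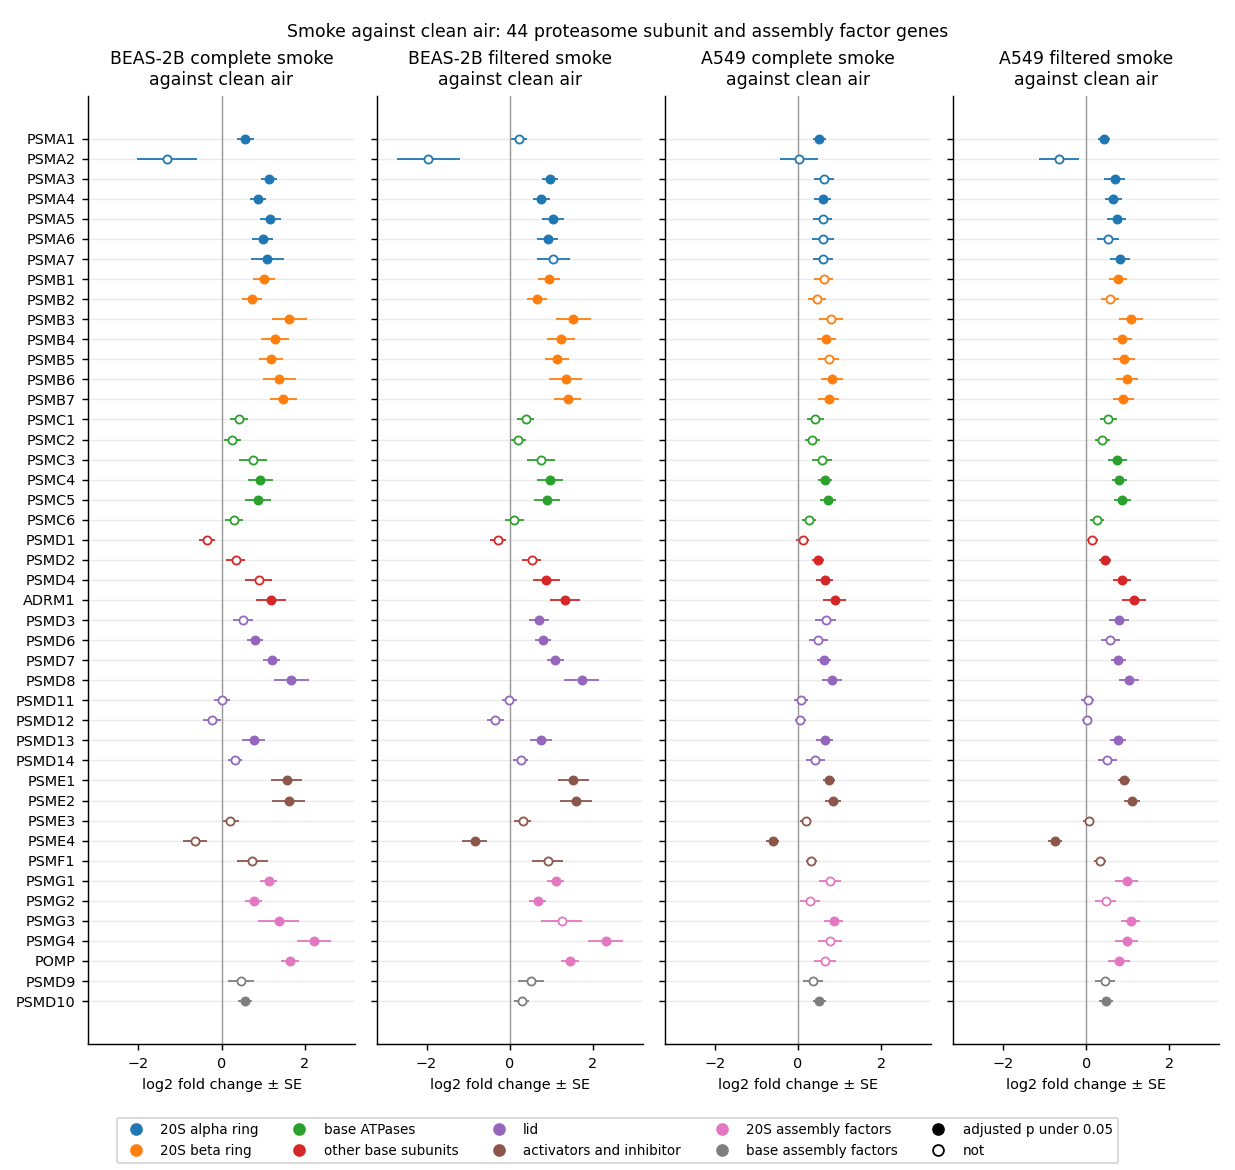
Log2 fold change of each of the 44 members, smoke against clean air, with its standard error (n = 3 libraries per group), in BEAS-2B and A549 after complete and filtered smoke. Filled points are members called at an adjusted p under 0.05; most points lie above 0, with PSMG4 highest in BEAS-2B, ADRM1 highest in A549, and PSME4 below 0 in all 4 comparisons.

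How many members were called depended on single libraries, and the share of all genes called moved too. In BEAS-2B after complete smoke the 28 higher calls became 14 without complete smoke library 1 and 18 without library 2, where 11.3% and 12.9% of all genes were called higher. They became 9 without clean air library 2 and 9 without clean air library 3, where 8.88% and 8.84% of all genes were. After filtered smoke the 26 became 15 without filtered smoke library 1 and 17 without library 2 (13.5% and 14.5% of all genes), and 9 and 10 without clean air library 2 and 3 (10.1% of all genes in each).

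In A549 the 17 higher calls of complete smoke became 2 without complete smoke library 1, where 5.11% of all genes were called higher, and 1 without library 2, where 3.39% were. They became 2, 1 and 2 without clean air library 1, 2 and 3, where 4.40%, 3.99% and 5.47% of all genes were. In 4 of these 5 fits, all but that without clean air library 1, the members' share was below that of all genes. The count was 32 without complete smoke library 3 and 30 without filtered smoke library 3, where 21.9% and 22.7% of all genes were called higher. The 28 calls of filtered smoke became 9 and 11 without filtered smoke library 1 and 2 (12.2% and 11.8% of all genes), and 12 and 11 without clean air library 2 and 3 (13.3% and 14.0%). The median over members stayed above 0 in each fit that left out 1 library, with a lowest value of 0.72 in BEAS-2B and 0.51 in A549.

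Same-numbered A549 libraries deviated together, but the main fits leave the number out. All single-gene calls and adjusted p-values given here come from the main fits. With the number as a block the complete smoke comparison in A549 gave 35 members higher, against 27.3% of all genes, and 1 lower, against 27.3%. Filtered smoke then gave 37 higher, against 30.4% of all genes, and 1 lower, against 31.3%. Some members given as not called in A549 were thus called with the block. With offsets for GC content, transcript length and gene span, and no block, the complete smoke comparison gave 5 higher. There 14.1% of all genes were called higher, so the members' share was below that of all genes. With block and offsets together it gave 34 higher, against 26.1% of all genes. Both fits with offsets called 0 members lower. The scaling of libraries mattered most in BEAS-2B. With library size alone, without scaling by the trimmed mean of M values (TMM), the median of all genes tested after complete smoke moved to -0.75 in BEAS-2B and -0.10 in A549, and after filtered smoke to -0.74 in BEAS-2B and -0.15 in A549. Members were then called 13 higher and 5 lower in BEAS-2B after either smoke, where 9.36% and 10.2% of all genes were called higher and 41.8% and 45.3% lower after complete and filtered smoke, and their median was 0.23 after complete and 0.25 after filtered smoke, still above that of all genes. All fold changes here are therefore relative to the bulk of the genes in the same libraries.

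**Figure D2:**
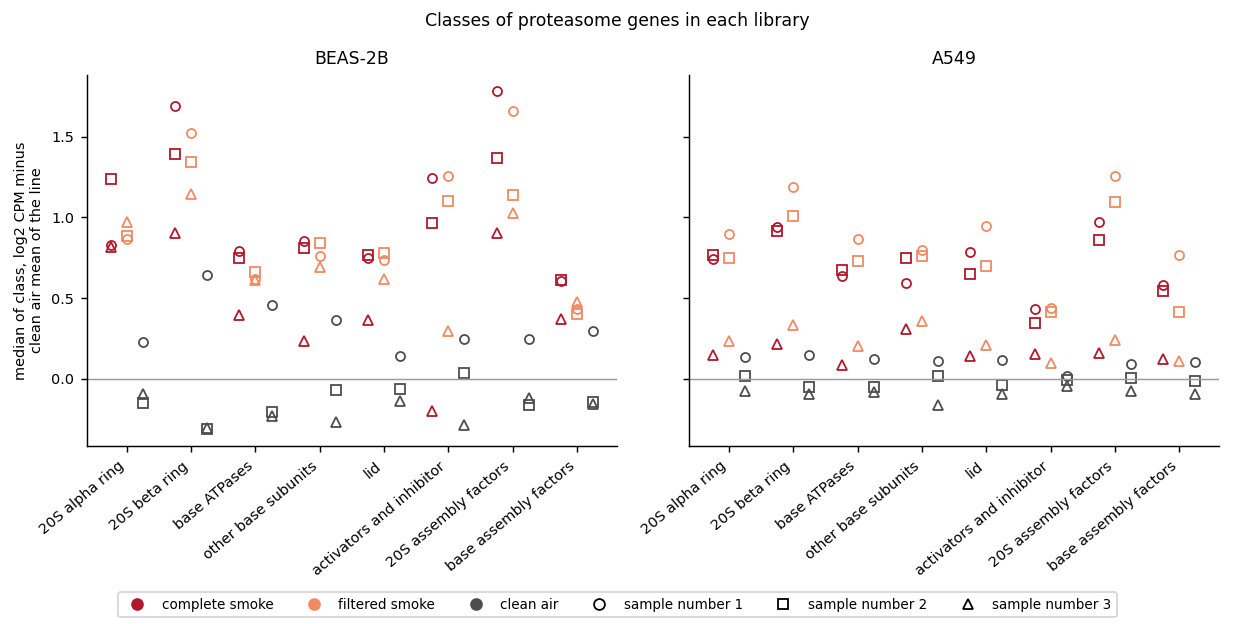
Median log2 CPM of each class of proteasome genes in each library, as the difference from the mean of the clean air libraries of the same line; symbols mark sample numbers 1 to 3. In A549 the smoke libraries numbered 3 lie nearest to clean air, and in BEAS-2B clean air library 1 lies nearest to smoke.

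Libraries of 1 group did not all move alike. The median over members of log2 CPM, as the difference from the clean air mean, was 1.15, 0.98 and 0.61 in the BEAS-2B complete smoke libraries 1, 2 and 3, then 0.98, 0.92 and 0.89 with filtered smoke, against 0.33, -0.15 and -0.19 in clean air. In A549 it was 0.74, 0.77 and 0.20 with complete smoke, 0.99, 0.78 and 0.24 with filtered smoke, against 0.11, -0.02 and -0.08 in clean air. BEAS-2B clean air library 1 thus stood nearest to the smoke libraries of its line, while the A549 smoke libraries numbered 3 moved least. Without BEAS-2B clean air library 1 and complete smoke library 3, a choice made after the values were seen, the median over members in BEAS-2B was 1.31 after complete smoke and 1.18 after filtered smoke. Summed over all 44 members, BEAS-2B libraries held 17828 ± 3934 CPM with complete smoke and 17686 ± 1807 CPM with filtered smoke, against 9189 ± 2541 CPM in clean air (mean ± SD, n = 3). A549 libraries held 6612 ± 1257 CPM and 7152 ± 1573 CPM with complete and filtered smoke, against 4557 ± 357 CPM in clean air.

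Subunit genes are known to carry short binding sites for stress factors before their starts. The stretches below are shown because these 4 genes differ in how they were called. Each is 80 bases of RefSeq sequence, build GRCh38.p14, read 5′ to 3′ on the strand of its gene. The capitals mark a match to TGACNNNGC, the core of the antioxidant response element, which is bound by NRF1 and NRF2.
PSMB3: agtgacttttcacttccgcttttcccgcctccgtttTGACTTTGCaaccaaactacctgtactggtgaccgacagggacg
ADRM1: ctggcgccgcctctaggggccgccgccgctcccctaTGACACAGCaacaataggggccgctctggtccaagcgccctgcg
PSME1: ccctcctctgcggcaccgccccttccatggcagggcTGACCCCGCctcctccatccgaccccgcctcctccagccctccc
PSMD12: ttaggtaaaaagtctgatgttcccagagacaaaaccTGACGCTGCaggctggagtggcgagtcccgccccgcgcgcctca
The PSMB3 stretch, before the gene of a beta ring subunit, lies at chr17:38752601-38752680 on the plus strand, with the core from -104 to -96 relative to the start, and PSMB3 was called higher in 3 of the 4 comparisons. The ADRM1 stretch, of a ubiquitin receptor of the base, lies at chr20:62302723-62302802 on the plus strand, from -137 to -129 of 1 annotated start and from -238 to -230 of another, and ADRM1 was called in all 4. The PSME1 stretch lies at chr14:24136072-24136151 on the plus strand, from -86 to -78, and PSME1, an activator subunit, was called in all 4. The PSMD12 stretch lies at chr17:67366699-67366778 on the minus strand, from -165 to -157, and PSMD12, a lid subunit, was called in none. In GENCODE v29 the ADRM1 stretch lies inside the ADRM1 gene but in no exon, and the other 3 lie outside genes.

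Promoters of 38 members were found, with 47 starts between them; PSMA7, PSMB1, PSMB6, PSMB7, PSMD4 and PSMG3 were not matched. Within 250 bases before a start, on either strand, TGACNNNGC stood in 12 of the 38 (31.6%), against 13.2% of the 27305 genes in the table. The 12 were PSMA4, PSMB3, PSMC5, ADRM1, PSMD3, PSMD12, PSME1, PSME2, PSME4, PSMG1, PSMG2 and PSMD9. Members with the core were called higher in 8 of 12 cases in BEAS-2B after complete smoke, with a median log2 fold change of 0.88, and in 9 of 12 after filtered smoke, with a median of 0.83. Members without it were called higher in 15 of 26 cases, with a median of 0.75, and in 13 of 26, with a median of 0.75. In A549 the counts with the core were 5 of 12 after complete and 8 of 12 after filtered smoke (medians 0.69 and 0.82), and without it 8 of 26 and 14 of 26 (medians 0.52 and 0.55). PSME4, which carries the core, was called lower in 3 of the 4 comparisons. Over the 4 comparisons 15.6% to 23.6% of all genes were called higher and 16.9% to 24.9% lower. The letters CCAAT stood in 18 of 38 members (47.4%), against 37.0% of all genes, and GAANNTTC, a pair of facing heat shock units, in 0 of 38, against 7.05% of all genes. These are matches of letters, and no binding was measured.

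The beta ring, which carries the cutting sites, had all 7 genes called higher in BEAS-2B after either smoke, with class medians of 1.29 after complete and 1.24 after filtered smoke on the log2 scale. In A549 3 of 7 were called after complete smoke and 6 of 7 after filtered smoke, with medians of 0.73 and 0.89. Beside these stand 21.5% and 23.6% of all genes called higher in BEAS-2B after complete and filtered smoke, and 15.6% and 23.1% in A549. The highest of the class was PSMB3 in BEAS-2B, at 1.63 ± 0.42 after complete smoke (log2 fold change ± SE, adjusted p = 0.0166) and 1.52 ± 0.42 after filtered smoke (adjusted p = 0.0183). PSMB2 was the lowest of the class in all 4 comparisons and was not called in A549, where it read 0.45 ± 0.22 after complete smoke (adjusted p = 0.132) and 0.57 ± 0.22 after filtered smoke (adjusted p = 0.0561).

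PSMB5 encodes the chymotrypsin-like cutting subunit, the main target of proteasome inhibitor drugs. It had 749, 633 and 459 CPM in BEAS-2B with complete smoke and 677, 582 and 532 CPM with filtered smoke, against 373, 221 and 209 CPM in clean air. The A549 libraries had 247, 245 and 149.8 CPM with complete smoke and 303, 262 and 158 CPM with filtered smoke, against 144, 119.9 and 122 CPM in clean air. All smoke libraries of a line lay above all its clean air libraries. PSMB5 rose by 1.19 ± 0.30 (adjusted p = 0.0145) and 1.13 ± 0.30 (adjusted p = 0.0150) in BEAS-2B after complete and filtered smoke. In A549 it rose by 0.91 ± 0.26 after filtered smoke (adjusted p = 0.0173), while 0.74 ± 0.26 after complete smoke just missed the threshold (adjusted p = 0.05004).

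PSMB6 encodes the caspase-like cutting subunit. BEAS-2B libraries had 773, 559 and 372 CPM of it with complete smoke and 678, 541 and 441 CPM with filtered smoke, against 334, 157 and 149.9 CPM in clean air. In A549 it stood at 277, 305 and 178 CPM with complete smoke and 343, 329 and 184 CPM with filtered smoke, against 167, 135 and 133 CPM in clean air. The groups did not overlap, though BEAS-2B clean air library 1 lay just under complete smoke library 3, and with library size alone these groups overlapped. PSMB6 rose by 1.39 ± 0.39 (adjusted p = 0.0222) and 1.34 ± 0.39 (adjusted p = 0.0218) in BEAS-2B, and by 0.81 ± 0.26 (adjusted p = 0.0390) and 0.98 ± 0.26 (adjusted p = 0.0137) in A549, after complete and filtered smoke.

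PSMB7, the trypsin-like cutting subunit, had the highest levels of the 3 in BEAS-2B. There it had 1229, 1036 and 801 CPM with complete smoke and 1115, 943 and 858 CPM with filtered smoke, against 537, 269.5 and 281 CPM in clean air. A549 libraries had 234, 229.6 and 142 CPM with complete smoke and 278, 245 and 154 CPM with filtered smoke, against 131, 121 and 114 CPM in clean air. Again no smoke library overlapped clean air. The rise was 1.48 ± 0.33 (adjusted p = 0.00958) and 1.39 ± 0.33 (adjusted p = 0.0106) in BEAS-2B, and 0.73 ± 0.24 (adjusted p = 0.0428) and 0.89 ± 0.24 (adjusted p = 0.0151) in A549, after complete and filtered smoke.

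**Figure D3:**
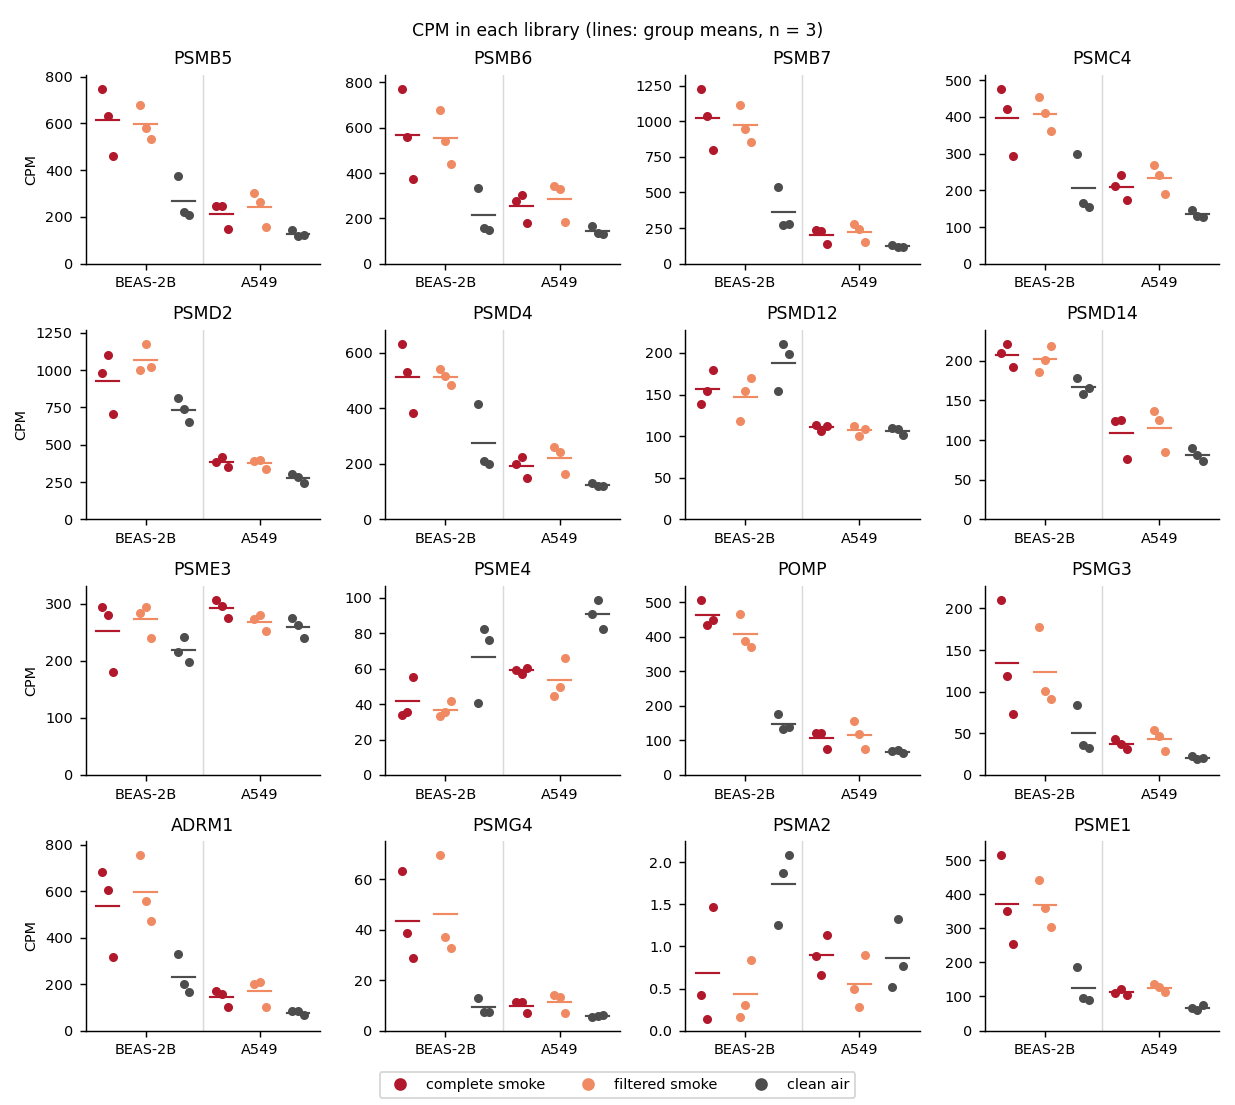
Level in CPM of 16 members in every library, by line and exposure (complete smoke, filtered smoke, clean air, n = 3 each); short lines are group means. The cutting subunits PSMB5, PSMB6 and PSMB7 lie higher in smoke than in clean air in both lines, PSMD12 overlaps between exposures, and PSME4 lies lower in the A549 smoke libraries, a direction that offsets for GC content, length and span reversed.

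Alpha ring genes, whose subunits form the gate of the barrel, were called higher in 6 of 7 cases in BEAS-2B after complete smoke and in 4 of 7 after filtered smoke. In A549 2 of 7 were called after complete smoke and 5 of 7 after filtered smoke. Among all genes 21.5% and 23.6% were called higher in BEAS-2B after complete and filtered smoke, and 15.6% and 23.1% in A549. PSMA5 rose in BEAS-2B by 1.17 ± 0.26 after complete smoke (adjusted p = 0.00897) and 1.04 ± 0.26 after filtered smoke (adjusted p = 0.0121). PSMA4 was called in all 4 comparisons, at 0.88 ± 0.20 (adjusted p = 0.00964) and 0.76 ± 0.20 (adjusted p = 0.0139) in BEAS-2B and 0.60 ± 0.20 (adjusted p = 0.0481) and 0.65 ± 0.20 (adjusted p = 0.0267) in A549. PSMA1 was called in 3, and PSMA6 in BEAS-2B alone, a difference between lines that its interaction test did not call (adjusted p = 0.597 for complete and 0.628 for filtered smoke).

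PSMA2 stood apart by its level, with 434 counts over all 18 libraries. It had 0.427, 0.143 and 1.47 CPM in BEAS-2B with complete smoke and 0.163, 0.2996 and 0.834 CPM with filtered smoke, against 1.26, 1.87 and 2.08 CPM in clean air. A549 libraries had 0.892, 0.665 and 1.14 CPM with complete smoke and 0.491, 0.283 and 0.903 CPM with filtered smoke, against 0.517, 1.32 and 0.764 CPM in clean air. Its log2 fold change was the lowest of the members in BEAS-2B, -1.31 ± 0.73 after complete smoke (adjusted p = 0.169) and -1.95 ± 0.75 after filtered smoke (adjusted p = 0.0547), and neither was called. The libraries overlapped in A549 and, with complete smoke, in BEAS-2B. In GENCODE v29 3 pseudogenes carry its name, so its counts are uncertain, and the same holds for PSMA6, with 7254 counts and 4 named pseudogenes.

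The 6 ATPases of the base form the ring that unfolds proteins. In each line and after either smoke 2 or 3 of them were called higher: PSMC4 and PSMC5 in all 4 comparisons, and PSMC3 in A549 after filtered smoke at 0.75 ± 0.23 (adjusted p = 0.0252). Over the 4 comparisons 15.6% to 23.6% of all genes were called higher, and calls this few do not set the ATPases apart. PSMC1, PSMC2 and PSMC6 were called in none, with log2 fold changes from 0.11 to 0.53. PSMC5 rose by 0.88 ± 0.31 (adjusted p = 0.0464) and 0.90 ± 0.31 (adjusted p = 0.0385) in BEAS-2B and by 0.72 ± 0.20 (adjusted p = 0.0250) and 0.86 ± 0.20 (adjusted p = 0.00858) in A549. The gene name of PSMC1 is carried by 13 pseudogenes in GENCODE v29, which makes its count uncertain.

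PSMC4 had 477, 422 and 294 CPM in BEAS-2B with complete smoke and 455, 409.7 and 363 CPM with filtered smoke, against 298, 164 and 155 CPM in clean air. Its A549 levels were 213, 242 and 175 CPM with complete smoke and 268, 241 and 191 CPM with filtered smoke, against 147, 129.5 and 128 CPM in clean air. The groups did not overlap in A549, but in BEAS-2B complete smoke library 3 lay below clean air library 1. PSMC4 rose by 0.94 ± 0.31 (adjusted p = 0.0368) and 0.96 ± 0.31 (adjusted p = 0.0295) in BEAS-2B, and by 0.65 ± 0.17 (adjusted p = 0.0200) and 0.80 ± 0.17 (adjusted p = 0.00587) in A549.

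Of the other base subunits, ADRM1 and PSMD4 are receptors for ubiquitin chains, and PSMD1 and PSMD2 are scaffolds. ADRM1 had the highest log2 fold change of all members in A549. It had 684, 603 and 318 CPM in BEAS-2B with complete smoke and 754, 559 and 470.3 CPM with filtered smoke, against 332, 199 and 166 CPM in clean air. In A549 it had 169.8, 158 and 101 CPM with complete smoke and 201, 211 and 103 CPM with filtered smoke, against 82.4, 84.8 and 66.5 CPM in clean air. Only BEAS-2B complete smoke library 3 reached down into the clean air range. The rise was 1.19 ± 0.37 (adjusted p = 0.0293) and 1.33 ± 0.37 (adjusted p = 0.0178) in BEAS-2B, and 0.89 ± 0.28 (adjusted p = 0.0353) and 1.15 ± 0.28 (adjusted p = 0.00958) in A549.

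The second receptor, PSMD4, had 632, 532 and 382 CPM in BEAS-2B with complete smoke and 542, 518 and 485 CPM with filtered smoke, against 415, 209 and 201 CPM in clean air. A549 libraries had 201, 226 and 148 CPM with complete smoke and 262, 243 and 163 CPM with filtered smoke, against 132, 119 and 119 CPM in clean air. In A549 the groups did not overlap. It was called higher in 3 comparisons, at 0.88 ± 0.33 in BEAS-2B after filtered smoke (adjusted p = 0.0496) and at 0.65 ± 0.21 (adjusted p = 0.0387) and 0.86 ± 0.21 (adjusted p = 0.00937) in A549. In BEAS-2B after complete smoke, where 1 library overlapped clean air, its 0.89 ± 0.33 was not called (adjusted p = 0.0534).

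The scaffold PSMD2 had 978, 1100.2 and 709 CPM in BEAS-2B with complete smoke and 1001, 1174 and 1019 CPM with filtered smoke, against 811, 741 and 652 CPM in clean air. Its A549 values were 383, 421 and 351 CPM with complete smoke and 389.6, 399 and 340.3 CPM with filtered smoke, against 307, 282 and 241 CPM in clean air. Smoke and clean air did not overlap in A549, and in BEAS-2B complete smoke library 3 reached into the clean air range. PSMD2 rose in A549, by 0.49 ± 0.14 (adjusted p = 0.0294) and 0.45 ± 0.14 (adjusted p = 0.0270), and was not called in BEAS-2B, at 0.34 ± 0.22 (adjusted p = 0.237) and 0.52 ± 0.23 (adjusted p = 0.0769). The other scaffold, PSMD1, was called in none, with values of -0.34 ± 0.19 (adjusted p = 0.170) and -0.29 ± 0.19 (adjusted p = 0.235) in BEAS-2B and 0.11 ± 0.15 (adjusted p = 0.577) and 0.14 ± 0.15 (adjusted p = 0.441) in A549.

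Of the 8 lid genes 3 were called higher in all 4 comparisons, 3 in none and 2 in some. In each single comparison 15.6% to 23.6% of all genes were called higher, but their joint share over the 4 is not given. Those called in all were PSMD7, PSMD8 and PSMD13. PSMD8 had the largest values, 1.68 ± 0.43 (adjusted p = 0.0153) and 1.73 ± 0.43 (adjusted p = 0.0123) in BEAS-2B, and PSMD7, the partner of the deubiquitinase PSMD14, rose by 1.202 ± 0.20 (adjusted p = 0.00378) and 1.10 ± 0.20 (adjusted p = 0.00502) there. PSMD6 was called in BEAS-2B after both smokes (0.80 for each) and PSMD3 after filtered smoke in both lines (0.70 in BEAS-2B and 0.78 in A549). PSMD11, PSMD12 and PSMD14 were called in none, and PSMD11 lay between -0.01 and 0.07 in all 4 comparisons.

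PSMD12, a scaffold of the lid whose promoter is printed above, had 138, 154 and 179 CPM in BEAS-2B with complete smoke and 118, 154 and 170.4 CPM with filtered smoke, against 155, 211 and 199 CPM in clean air. The A549 libraries had 114, 106 and 112 CPM with complete smoke and 113, 101 and 109 CPM with filtered smoke, against 109.9, 109 and 101 CPM in clean air. The groups overlapped in both lines. Its log2 fold change was -0.23 ± 0.21 (adjusted p = 0.392) and -0.35 ± 0.21 (adjusted p = 0.194) in BEAS-2B, and 0.06 ± 0.12 (adjusted p = 0.719) and 0.02 ± 0.12 (adjusted p = 0.919) in A549.

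PSMD14, the enzyme of the lid that removes ubiquitin chains, had 209.8, 221 and 193 CPM in BEAS-2B with complete smoke and 186, 201 and 218 CPM with filtered smoke, against 179, 158 and 166 CPM in clean air. A549 libraries had 124, 126 and 76.7 CPM with complete smoke and 137, 125 and 85.5 CPM with filtered smoke, against 90.6, 81.6 and 73.0 CPM in clean air. All BEAS-2B smoke libraries lay above clean air, but with library size alone all lay below it, so the direction turned with the scaling. The A549 smoke libraries numbered 3 did not lie above clean air. None of the 4 differences was called: 0.32 ± 0.17 (adjusted p = 0.151) and 0.26 ± 0.17 (adjusted p = 0.223) in BEAS-2B, 0.42 ± 0.22 (adjusted p = 0.165) and 0.51 ± 0.22 (adjusted p = 0.0848) in A549.

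The activators moved in different directions. PSME1 and PSME2, which pair in a cap known to be induced by interferon and lie near each other (GRCh38 chr14:24136158-24138967 on the plus strand and chr14:24143362-24147570 on the minus strand), were called higher in all 4 comparisons. PSME1 rose by 1.56 ± 0.36 (adjusted p = 0.0113) and 1.53 ± 0.36 (adjusted p = 0.0109) in BEAS-2B, and by 0.74 ± 0.15 (adjusted p = 0.00725) and 0.91 ± 0.15 (adjusted p = 0.00207) in A549. PSME2 rose by 1.61 ± 0.39 (adjusted p = 0.0125) and 1.59 ± 0.39 (adjusted p = 0.0117) in BEAS-2B, and by 0.83 ± 0.19 (adjusted p = 0.0130) and 1.10 ± 0.19 (adjusted p = 0.00291) in A549. The inhibitor PSMF1 was not called, at 0.74 ± 0.38 (adjusted p = 0.139) and 0.91 ± 0.38 (adjusted p = 0.0733) in BEAS-2B and 0.32 ± 0.14 (adjusted p = 0.0971) and 0.33 ± 0.14 (adjusted p = 0.0759) in A549.

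PSME3 encodes an activator of the nucleus. It had 294, 279 and 181 CPM in BEAS-2B with complete smoke and 283, 294 and 239 CPM with filtered smoke, against 215, 242 and 198 CPM in clean air. Levels in A549 were 307, 296 and 275 CPM with complete smoke and 273, 280.1 and 251 CPM with filtered smoke, against 275, 262 and 240.3 CPM in clean air. Smoke and clean air overlapped in BEAS-2B and, with filtered smoke, in A549, where the lowest complete smoke library equalled the highest clean air library within 1 CPM. The log2 fold changes, 0.21 ± 0.21 (adjusted p = 0.429) and 0.31 ± 0.21 (adjusted p = 0.232) in BEAS-2B and 0.18 ± 0.13 (adjusted p = 0.274) and 0.06 ± 0.13 (adjusted p = 0.732) in A549, were not called.

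PSME4 encodes a large activator that caps the core as a single chain and is known in testis and in DNA repair. It had 33.7, 35.6 and 55.4 CPM in BEAS-2B with complete smoke and 33.1, 35.4 and 41.6 CPM with filtered smoke, against 40.7, 82.5 and 76.2 CPM in clean air. In A549 it had 59.4, 57.2 and 60.5 CPM with complete smoke and 44.8, 49.5 and 66.1 CPM with filtered smoke, against 91.0, 98.8 and 82.2 CPM in clean air. A549 smoke libraries all lay below clean air, and in BEAS-2B clean air library 1 lay within the smoke range. PSME4 fell by 0.61 ± 0.16 (adjusted p = 0.0204) and 0.75 ± 0.16 (adjusted p = 0.00599) in A549 and by 0.84 ± 0.29 in BEAS-2B after filtered smoke (adjusted p = 0.0394), while -0.63 ± 0.29 after complete smoke was not called (adjusted p = 0.106). The direction did not hold with offsets for GC content, transcript length and gene span, which gave 0.06 and 0.03 in A549 and 0.13 and 0.14 in BEAS-2B after complete and filtered smoke. The gene spans 106.774 kb.

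The assembly factors of the 20S core had the largest class medians in BEAS-2B, 1.37 after complete and 1.25 after filtered smoke, with 5 of 5 and 4 of 5 called higher. In A549 1 of 5 was called after complete smoke and 4 of 5 after filtered smoke, with medians of 0.77 and 0.97. For all genes the shares called higher were 21.5% and 23.6% in BEAS-2B and 15.6% and 23.1% in A549. The 1 of 5 in A549 thus lies near the share of all genes. PSMG1 and PSMG2 form the pair that starts the alpha ring, and PSMG3 and PSMG4 the pair that completes it. PSMG1 rose by 1.14 ± 0.20 (adjusted p = 0.00444) and 1.10 ± 0.20 (adjusted p = 0.00495) in BEAS-2B. Of the base assembly factors PSMD10 was called in 3 comparisons, at 0.56 in BEAS-2B after complete smoke and 0.52 and 0.48 in A549, and PSMD9 in none. PSMD9 overlaps other genes on its strand that hold more counts than it does, so its values are uncertain.

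POMP brings the beta subunits onto the alpha ring and is then the first substrate of the new core. It had 507, 434 and 447 CPM in BEAS-2B with complete smoke and 466, 387 and 371 CPM with filtered smoke, against 175, 132 and 139 CPM in clean air. A549 libraries had 122, 122 and 74.9 CPM with complete smoke and 157, 117 and 73.9 CPM with filtered smoke, against 68.7, 70.9 and 64.0 CPM in clean air. In BEAS-2B every smoke library had over 2 times the level of every clean air library. POMP rose there by 1.64 ± 0.21 (adjusted p = 0.00198) and 1.44 ± 0.21 (adjusted p = 0.00283), and in A549 by 0.78 ± 0.27 after filtered smoke (adjusted p = 0.0350), with 0.65 ± 0.27 after complete smoke not called (adjusted p = 0.0793).

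PSMG3 had 210.4, 119 and 73.5 CPM in BEAS-2B with complete smoke and 178, 101 and 91.8 CPM with filtered smoke, against 83.9, 36.0 and 32.2 CPM in clean air. In A549 it had 43.3, 37.4 and 30.9 CPM with complete smoke and 53.8, 46.4 and 29.2 CPM with filtered smoke, against 22.7, 19.2 and 20.1 CPM in clean air. The BEAS-2B libraries spread widely, and complete smoke library 3 lay below clean air library 1. PSMG3 rose by 1.37 ± 0.49 in BEAS-2B after complete smoke (adjusted p = 0.0480), and by 0.86 ± 0.22 (adjusted p = 0.0197) and 1.07 ± 0.22 (adjusted p = 0.00556) in A549, and 1.25 ± 0.49 in BEAS-2B after filtered smoke was not called (adjusted p = 0.0581).

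PSMG4 had the highest log2 fold change of the members in BEAS-2B. There it had 63.4, 38.6 and 28.9 CPM with complete smoke and 69.4, 36.9 and 32.7 CPM with filtered smoke, against 13.0, 7.42 and 7.26 CPM in clean air. In A549 it had 11.4, 11.2 and 7.12 CPM with complete smoke and 13.9, 13.3 and 6.87 CPM with filtered smoke, against 5.32, 5.84 and 6.32 CPM in clean air. No smoke library overlapped clean air in either line. PSMG4 rose by 2.23 ± 0.41 (adjusted p = 0.00516) and 2.30 ± 0.41 (adjusted p = 0.00470) in BEAS-2B and by 0.97 ± 0.28 in A549 after filtered smoke (adjusted p = 0.0191), with 0.77 ± 0.28 after complete smoke not called (adjusted p = 0.0569).

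The genes of members called higher were shorter in median span than those of members not called. In BEAS-2B after complete smoke the called members had a median span of 11.8 kb, against 23.3 kb for members not called, and in A549 9.29 kb against 23.3 kb. After filtered smoke the medians were 13.1 kb against 21.4 kb in BEAS-2B and 10.4 kb against 29.6 kb in A549. All protein-coding genes tested were divided by span into 4 bins of about equal number, and their median fold change was lower in each longer bin. In the bin with the shortest spans their median log2 fold change was 0.59 in BEAS-2B and 0.49 in A549 after complete smoke, and 0.67 and 0.59 after filtered smoke, where members had 1.16, 0.68, 1.10 and 0.86. In the bin with the longest spans all protein-coding genes had -0.56, -0.52, -0.72 and -0.57, and the 4 members there had -0.01, 0.26, -0.04 and 0.28. The members did not follow that order in the middle bins of BEAS-2B, where their medians were 0.51 and 0.70 in the second bin and 0.77 and 0.91 in the third, after complete and filtered smoke. Within each of the 4 bins and 4 comparisons the members' median lay above that of all protein-coding genes. The part of span in the calls was not tested beyond the fits with offsets.

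**Figure D4:**
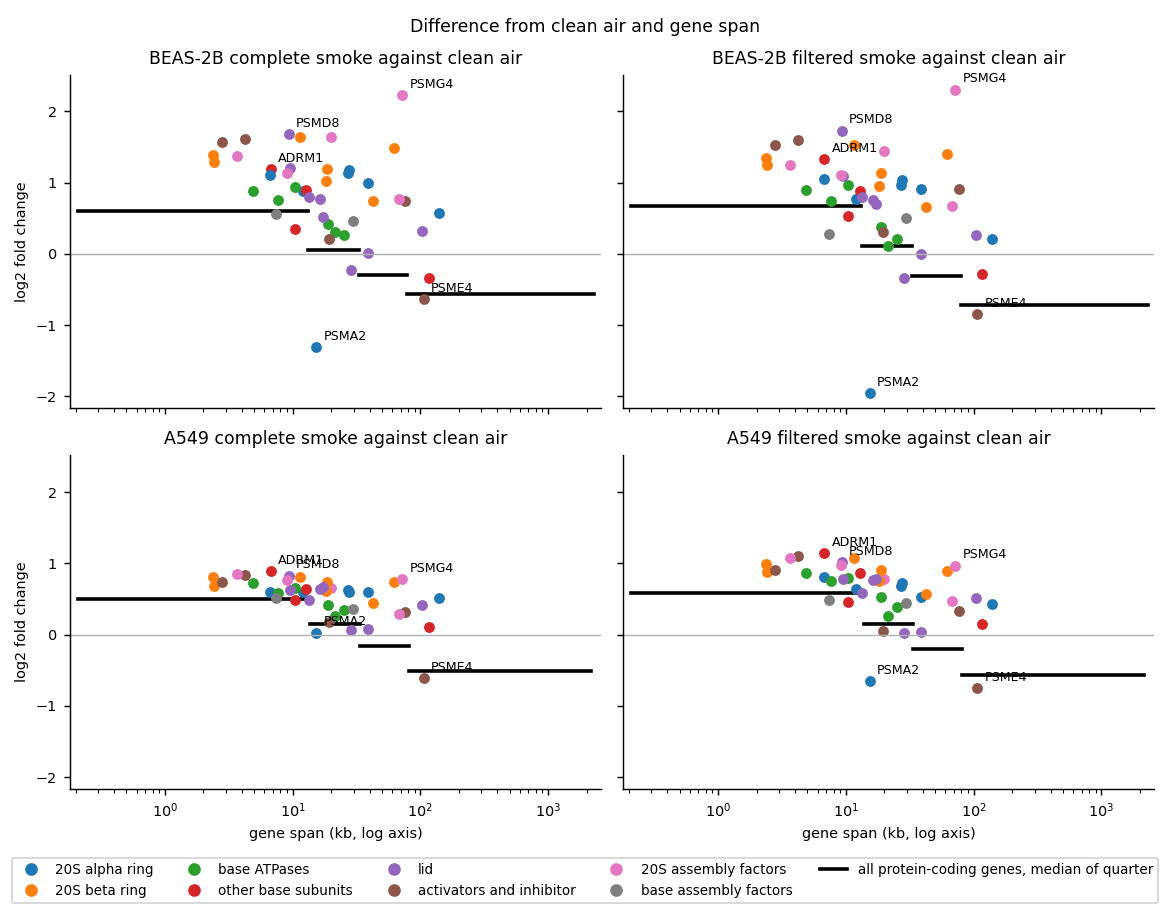
Log2 fold change of each member against its gene span in kb (log axis), smoke against clean air, for both lines and both smokes. Black lines are the medians of all protein-coding genes in 4 bins of span; members lie mostly above these lines, and the lines fall toward long spans, with PSME4 among the longest at 106.774 kb.

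Complete smoke and filtered smoke were also set against each other, which asks what the removed fraction of the smoke adds. No member was called in either line, with 0 of 44 in BEAS-2B, where 0.0% of all genes were called, and 0 of 44 in A549, where 0.0% were. At an unadjusted p under 0.05 the count of members was also 0 in both lines, and DESeq2 and limma-voom called 0. The differences of complete minus filtered smoke ran from -0.18 to 0.64 in BEAS-2B (median 0.05, SE from 0.17 to 0.78) and from -0.27 to 0.68 in A549 (median -0.13, SE from 0.12 to 0.48). PSMA2, with its low counts, was the highest in both lines, named after its value was seen. A p that misses the threshold does not show that the smokes acted alike, and the median SE over members was 0.26 in BEAS-2B and 0.22 in A549.

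The 2 lines were compared in 1 fit of all 18 libraries, as the response in BEAS-2B minus that in A549. Growth medium, cell number, sequencing depth and form of sample name differ along with the line, so these cannot be told apart. No member was called for complete smoke, where 1.74% of all genes were, or for filtered smoke, where 0.825% were. With the sample number as a block 11 members were called, all higher, for complete smoke, where 10.3% of all genes were called higher and 9.68% lower, and 5, all higher, for filtered smoke, where 7.94% were higher and 7.55% lower. DESeq2 and limma-voom called 0 members as well. The median difference was 0.31 for complete smoke, with a range from -1.39 to 1.47, and 0.21 for filtered smoke. At an unadjusted p under 0.05 stood 4 members for complete smoke, PSMD7, PSME1, PSMG4 and POMP, and 1 for filtered smoke, PSMG4. The share of all genes at that level is not given, so these counts alone show no change in the members. The largest difference was that of PSMG4, 1.47 ± 0.51 for complete smoke (adjusted p = 0.157) and 1.36 ± 0.51 for filtered smoke (adjusted p = 0.230). With library size alone the median turned negative, -0.24 for complete and -0.30 for filtered smoke. Without BEAS-2B clean air library 1 and complete smoke library 3, 15 members were called higher and 1 lower for complete smoke, where 11.1% of all genes were higher and 10.4% lower, and 2 higher for filtered smoke, where 2.35% were higher and 2.80% lower.

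In clean air the proteasome genes were higher in BEAS-2B than in A549. Of 44 members 31 were called higher in BEAS-2B, against 27.3% of all genes, and 0 lower, against 28.0%. The median log2 difference was 1.01, against 0.01 for all genes, and 22 members were over 2-fold higher. The share of all genes over 2-fold higher is not given, so that count alone does not set the members apart. The largest was PSMC3, an ATPase of the base, at 2.04 ± 0.30 (adjusted p = 2.34e-05), followed by PSMB1 at 1.94 ± 0.25 (adjusted p = 5.61e-06). All 6 ATPases and all 4 other base subunits were called, with 6 of 7 beta ring genes, 4 of 7 alpha ring genes, 4 of 8 lid genes and 4 of 5 assembly factors of the core. PSME3, PSME4 and PSMF1 had values below 0 (-0.25, -0.45 and -0.33) and were not called. Line, growth medium, cell number, sequencing depth and form of sample name cannot be told apart here. Without BEAS-2B clean air library 1 and complete smoke library 3 the median was 0.78, with 27 members called. The share of all genes called in that fit is not given.

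Levels between genes were compared as CPM per kb of transcript, with the length of the APPRIS principal transcript in GENCODE v29 (the median where there are several). In clean air the order of group means in BEAS-2B began with PSMA7, at 565 ± 306 CPM per kb (mean ± SD, n = 3). PSMB4, PSMB7, PSMB1 and PSMC3 followed, at 501, 370, 365 and 351. In A549 it began with PSME3, at 259.6 ± 17.4 CPM per kb, ahead of PSMA7, PSMB4, PSMB6 and PSMD8, at 193, 175, 170.0 and 154. All genes were measured in the same libraries, so an SD between libraries does not show whether genes differ, and the order was not tested. It also rests on the transcript chosen for each gene. PSME3 was divided by 998 bases, though its exons together cover 5152, and PSMA4 was divided by 4411. PSME3 was ninth in BEAS-2B at 219 ± 22.4 CPM per kb. PSMA2 was last in both lines, at 1.17 CPM per kb in BEAS-2B and 0.584 in A549.

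The immunoproteasome subunits PSMB8, PSMB9 and PSMB10 replace the cutting subunits PSMB5, PSMB6 and PSMB7 in cells that receive interferon. All 3 were called higher in BEAS-2B after both smokes and in A549 after filtered smoke, and PSMB8 and PSMB9 in A549 after complete smoke. Of all genes 21.5% and 23.6% were called higher in BEAS-2B after complete and filtered smoke, and 15.6% and 23.1% in A549. PSMB8 rose by 1.75 ± 0.38 (adjusted p = 0.00897) and 1.72 ± 0.38 (adjusted p = 0.00871) in BEAS-2B and by 0.83 ± 0.19 (adjusted p = 0.0123) and 1.04 ± 0.19 (adjusted p = 0.00334) in A549. PSMB9 rose by 1.77 and 1.70 in BEAS-2B and 0.86 and 1.36 in A549, and PSMB10 by 2.01 and 1.98 in BEAS-2B and 0.98 in A549 after filtered smoke, with 0.61 after complete smoke not called (adjusted p = 0.0508). Their levels stayed below those of the constitutive genes. PSMB8 had 13.3% of the counts of PSMB5 in BEAS-2B with complete smoke and 13.7% with filtered smoke, against 9.10% in clean air, and 7.10% and 7.28% in A549, against 6.50%. The tissue-specific subunits PSMB11 and PSMA8 had too few counts to be tested.

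**Figure D5:**
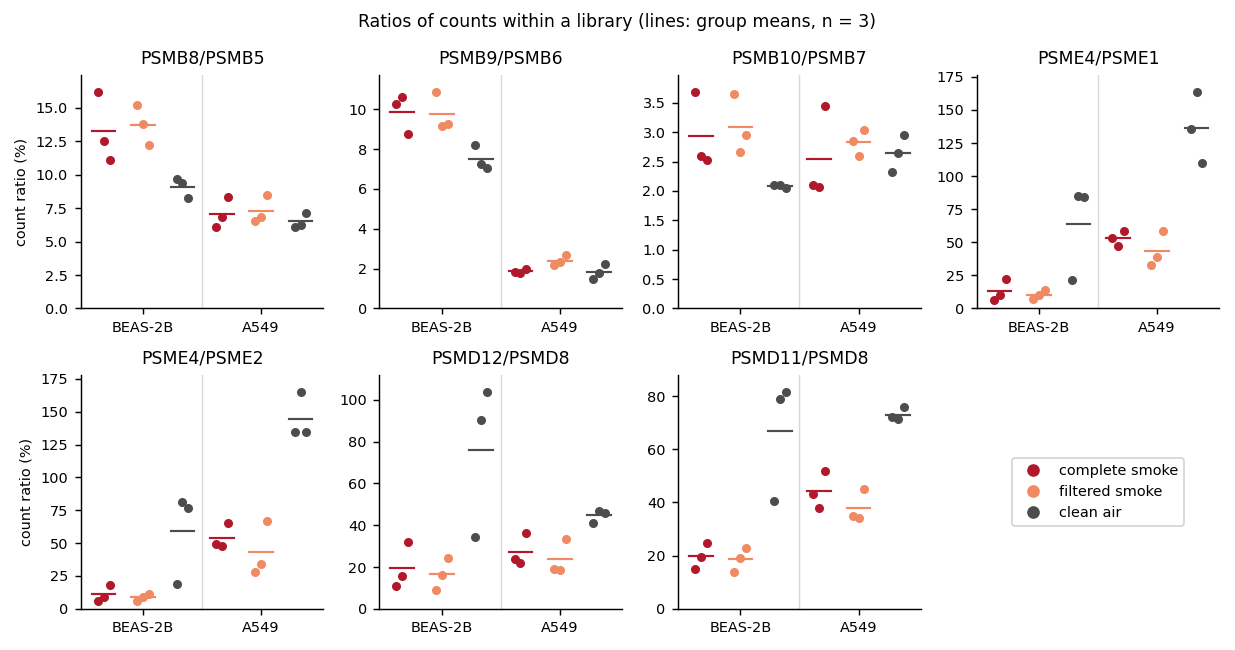
Counts of one gene as a percent of those of another in every library, for 7 pairs chosen after their values were seen, by line and exposure (complete smoke, filtered smoke, clean air, n = 3 each). In BEAS-2B the 3 immunoproteasome ratios lie higher with smoke than in clean air, and the ratio of PSME4 to PSME1 lies lower with smoke in A549. These last genes differ in span, 106.774 kb against 2.81 kb.

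Count ratios within a library do not depend on its scaling. The pairs were chosen after their values were seen, and a pair can differ in gene span. PSME4 spans 106.774 kb and PSME1 2.81 kb, and with the offsets given above PSME4 did not fall. The part of span in these ratios was not tested. PSME4 had 12.9% ± 8.03 of the counts of PSME1 in BEAS-2B with complete smoke and 10.4% ± 3.13 with filtered smoke, against 63.7% ± 36.3 in clean air (mean ± SD, n = 3, two-sided exact permutation p = 0.2 and 0.1). In A549 the ratio was 53.1% ± 5.55 with complete smoke and 43.4% ± 13.6 with filtered smoke, against 136% ± 26.9 in clean air (exact permutation p = 0.1 for both). The PSMB8 to PSMB5 ratio had an exact p of 0.1 in BEAS-2B for both smokes, and 0.7 and 0.3 in A549. With 3 libraries against 3 the smallest p is 0.1, and 28 such comparisons were made, so none could pass the threshold.

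Of 13 proteasome-associated factors, 4 were called higher and 0 lower in BEAS-2B after complete smoke, and 4 higher and 1 lower after filtered smoke. In A549 the counts were 2 higher and 2 lower after complete smoke and 5 higher and 4 lower after filtered smoke. Of all genes 21.5% were called higher and 19.5% lower in BEAS-2B after complete smoke, and 23.6% and 24.9% after filtered smoke. In A549 the shares were 15.6% and 16.9%, then 23.1% and 23.5%. The A549 counts after complete smoke thus lie near those of all genes. Among the associated factors the largest change was that of ZFAND2A, a heat-inducible zinc finger protein that binds the proteasome, at 1.63 ± 0.34 and 1.74 ± 0.34 in BEAS-2B (adjusted p = 0.00739 and 0.00580) and 1.15 ± 0.18 and 1.41 ± 0.18 in A549 (adjusted p = 0.00284 and 0.000925). SEM1, the smallest lid subunit, rose by 1.49 and 1.28 in BEAS-2B, and PITHD1 by 0.82 and 0.83 in A549. UBE3A, a ubiquitin ligase that docks on the proteasome, fell by 1.17 in BEAS-2B after filtered smoke and by 0.65 and 0.70 in A549. With the offsets the UBE3A value was 0.10 in A549 after complete smoke and 0.09 in BEAS-2B after filtered smoke, so its direction did not hold.

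Genes that process NRF1 or pair with it were called in both directions. Of the 9 tested 1 was called higher in each comparison, MAFF, a small partner of NRF1 and NRF2, at 1.72 ± 0.22 and 1.82 ± 0.22 in BEAS-2B (adjusted p = 0.00184 and 0.00210) and 2.65 ± 0.42 and 2.23 ± 0.41 in A549 (adjusted p = 0.00313 and 0.00362). In BEAS-2B 3 were called lower after either smoke, and in A549 3 after filtered and 0 after complete smoke. Over all genes, 21.5% and 23.6% were called higher in BEAS-2B after complete and filtered smoke, and 15.6% and 23.1% in A549. Called lower were 19.5% and 24.9% of all genes in BEAS-2B and 16.9% and 23.5% in A549. These counts alone thus do not set the list apart from all genes. DDI2, the protease that activates NRF1, fell by 1.59 ± 0.44 (adjusted p = 0.0203) and 2.03 ± 0.44 (adjusted p = 0.00842) in BEAS-2B and by 1.80 ± 0.41 in A549 after filtered smoke (adjusted p = 0.00771). SYVN1, a ligase of the endoplasmic reticulum, fell by 1.33 and 1.078 in BEAS-2B and by 0.63 in A549 after filtered smoke. DDI2 overlaps RSC1A1 and SYVN1 overlaps FAU on the same strand, so the counts of both are uncertain. NFE2L1, which encodes NRF1 itself, fell by 0.82 ± 0.19 (adjusted p = 0.0112) and 0.62 ± 0.19 (adjusted p = 0.0255) in BEAS-2B and was not called in A549; it lies outside the rule for named genes and was chosen after its values were seen. DDI1 had 0 counts in every library and was not tested.

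Shuttle factors carry ubiquitinated proteins to the receptors of the base. Of all genes 15.6% to 23.6% were called higher and 16.9% to 24.9% lower over the 4 comparisons. Near these shares, 1 of the 6 on the list was called higher and 1 lower in each of the 4. The lower one, UBQLN2, fell by 1.01 ± 0.32 and 1.03 ± 0.32 in BEAS-2B (adjusted p = 0.0331 and 0.0268) and by 0.83 ± 0.14 and 1.084 ± 0.14 in A549 (adjusted p = 0.00365 and 0.000925). Of 6 genes of ubiquitin and its activating enzymes 3 and 4 were called higher in BEAS-2B after complete and filtered smoke and 4 and 5 in A549, with 0 lower. The shares of all genes called higher were 21.5% and 23.6% in BEAS-2B and 15.6% and 23.1% in A549. RPS27A, a fusion of ubiquitin with a ribosomal protein, rose by 2.10 and 1.92 in BEAS-2B and 0.89 and 1.085 in A549.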

How the data were processed

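The deposited files hold read counts per gene, which the authors made with STAR 2.7.10b on GRCh38, per the submitters' processing notes; the annotation release is not given in the sources used here. The labels' protocols name a TruSeq mRNA kit for the libraries. Of the 3 count columns the 1 for the reverse strand was used, since its totals were 11.7 to 17.1 times those of the opposite strand, and 4 summary lines were left out of library sizes and tests. The 44 members and 5 lists of other pathway genes were matched by symbol; these members and lists were chosen with earlier results of these data known. Positions, spans and transcript lengths are from GENCODE v29, and promoters from a RefSeq table of GRCh38.p14.

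Genes were filtered with filterByExpr and libraries scaled by TMM; edgeR 4.0.16 in R 4.3.3 fitted quasi-likelihood models with robust dispersion to the 9 libraries of a line (15244 genes tested in A549, 16356 in BEAS-2B) or to all 18 (17703 genes) for differences between lines. Benjamini-Hochberg adjustment ran over all genes tested, standard errors came from the test statistic, and CPM values use TMM factors over 18 libraries. Alternatives were other scalings and filters, DESeq2 1.42.0, limma-voom (limma 3.58.1), counts that ignore strand, offsets from splines of mgcv 1.9.3, the sample number as a block, and each library left out. The test code was run on simulated counts first.

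Values in every library are given for 12 fixed members and for the members with the highest and lowest fold change of each smoke comparison; from the pathway lists the 3 largest called genes of a comparison may be named. Some results of these lists are not reported here. Same-numbered A549 libraries deviated together in every pair (r from 0.22 to 0.80), and in BEAS-2B r ran from -0.13 to 0.67. The labels give a number but no batch, so the main fits have no block, and the block was an alternative in both lines.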

Additional observations from a re-analysis of the deposited data

How the results depend on the processing

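Medians over members kept their sign in every within-line comparison of smoke with clean air. Counts and medians that moved were these. With library size alone 11 members were called in A549 after complete smoke, where 10.4% of all genes were called higher and 19.6% lower. In BEAS-2B 18 were called after complete smoke, where 9.36% of all genes were higher and 41.8% lower. The BEAS-2B medians were 0.23 and 0.25 after complete and filtered smoke. Between lines 1 member was called lower for complete smoke, as 8.62% of all genes were, and the medians were -0.24 and -0.30. Without a low-count filter 28 were called in A549 after complete smoke, where 9.08% of all genes were higher and 8.87% lower. Between lines 1 was then called higher for each smoke, as 0.922% and 0.396% of all genes were for complete and filtered smoke. With only the 6 libraries compared the A549 count after complete smoke was 30. With the offsets it was 5, where 14.1% of all genes were called higher and 13.6% lower. With the replicate block it was 36, where 27.3% of all genes were called higher and 27.3% lower. With the replicate block and offsets together it was 34, where 26.1% were higher and 22.1% lower. Between lines the replicate block gave 11 and 5 calls for complete and filtered smoke, all higher, as 10.3% and 7.94% of all genes were. With offsets added it gave 12 and 7, all higher, as 14.0% and 11.4% of all genes were. In BEAS-2B the block gave 35 calls after each smoke. Of all genes 30.4% were then called higher and 32.7% lower after complete smoke, and 31.9% and 35.0% after filtered smoke. Each BEAS-2B library was also matched with the libraries of each other group, and in 15 of 18 such matches it correlated best with its own number. Both alternatives that follow were chosen after seeing the data. With sample numbers 1 and 2 alone 38 members were called in A549 after complete smoke. In BEAS-2B 18 and 13 were called after complete and filtered smoke, and the median between lines for filtered smoke was -0.13. Shares of all genes are not given for these counts or for the 6 libraries compared, so the counts alone do not show a change in the members. Without BEAS-2B clean air 1 and complete 3 the medians were 1.31 and 1.18 in BEAS-2B, 0.70 between lines for complete smoke and 0.78 in clean air. Between lines 16 and 2 members were then called, with the shares of all genes given above.

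Leaving out each library in turn gave between 9 and 33 calls in BEAS-2B after complete smoke (medians 0.72 to 1.26) and between 9 and 33 after filtered smoke (0.73 to 1.17). In A549 it gave 1 to 33 (0.51 to 0.76) and 10 to 39 (0.53 to 0.90). The share of all genes called moved too in the fits described above, so these counts alone do not show a change in the members. Complete against filtered smoke gave 0 throughout (-0.09 to 0.15 in BEAS-2B, -0.29 to 0.03 in A549), the line difference in clean air 26 to 31 (0.78 to 1.11), and the response differences 0 to 1 (0.12 to 0.59) and 0 (-0.0758 to 0.44).

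Among single genes 10178 values kept their state of called or not called, 607 lost the call, 416 gained one and 16 reversed. A change of sign was counted as reversed only where the main fit or the alternative called the gene. Sign changes among values called in neither are within the 10178. PSMA2 in A549 after complete smoke, for example, was above 0 in 16 of 22 settings and called in 0. With offsets PSME4 read 0.0597 in A549 after complete smoke, 0.0340 after filtered smoke and 0.142 in BEAS-2B after filtered smoke, and with the block added 0.0577, 0.0398 and 0.140. UBE3A likewise read 0.101 and 0.102 in A549 after complete smoke and 0.0861 and 0.0800 in BEAS-2B after filtered smoke. The block with offsets gave 0.37 for PSMD11 and 0.25 for PSMD12 in BEAS-2B after filtered smoke. Library size alone gave -0.10 for PSMA1, -0.11 for PSMD10, -0.68 for PSMD11 and -0.50 for PSME3 in BEAS-2B after complete smoke. The cause of these changes was not tested. Depth limits PSMA2 most, at about 1 CPM.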
